A study of Homo sapiens with 12 samples.

Results

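The genes described here are 35 genes of glycolysis and of the response to low oxygen, taken by name from a list of members out of 26318 genes in the count table, with glucose and lactate transporters left out. They comprise 17 glycolytic enzymes, 5 enzymes that set the direction of glycolytic flux and 13 genes of the hypoxia response. The members were all found in the table and all passed the filter on low counts, as 35 of 16437 tested genes. ADM passed it only through the IRF4 shRNA libraries. RNA was sequenced from TMD8, an established human cell line of an activated B cell type (ABC) diffuse large B cell lymphoma, in 6 libraries with a short hairpin RNA (shRNA) against the transcription factor IRF4 and 6 control libraries with a scramble shRNA. Cell pellets were taken at 24 h, and all libraries are of this 1 line. The number of hairpins and the oxygen and glucose supply are not given in the sources used here. A cell line label counted upward from TMD8 over the samples while every title named TMD8, so all were taken as TMD8. Library names carry a number 1 or 2 of unstated meaning, and each number holds 3 IRF4 shRNA and 3 control libraries, called library series 1 and 2.

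Glycolysis breaks glucose down to pyruvate in the cytosol, and lactate dehydrogenase turns pyruvate into lactate. Several steps are run by enzymes from more than one gene, and these isoenzymes differ in tissue distribution and regulation. When oxygen is low, prolyl hydroxylases no longer mark the HIF alpha subunit for destruction by the VHL ubiquitin ligase. HIF then binds DNA with ARNT at sites with the core ACGTG or GCGTG and raises genes of glycolysis, angiogenesis and mitophagy. Cultured lymphoma cells commonly use glycolysis also when oxygen is present. HIF activity is set largely by the stability of the HIF alpha protein, which RNA levels do not measure.

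Promoters were searched for the HIF core because the hypoxia response is known to act through it. RefSeq promoter windows (GRCh38.p14) were matched for 31 of the 35 members, in 57 windows. PFKFB2, NDRG1, BNIP3L and VEGFA had no window and were not searched. The core ACGTG or GCGTG, on either strand and within 250 bases before the start, was present in at least 1 window of 27 of the 31 members (87.1%), against 6608 of 10294 tested genes with a window (64.2%). Per window it was present in 35 of 57 member windows (61.4%) and in 43.2% of all 35116 windows, which include genes not tested here. Per gene, 47.4% of all 27305 RefSeq genes held the core, a smaller share than among tested genes. Windows of tested genes alone were not counted, and the number of windows per gene was not matched. CACGTG, which holds ACGTG on both strands, was present in 9 members (29%) and in 11.3% of tested genes. Among matched members the core was present in 11 of 13 that were higher with IRF4 shRNA, 8 of 10 that were lower and 8 of 8 that did not pass the test. Its presence was thus found in all of these sets, and a match is a run of letters, not a measured HIF site. The 250 bases before the start follow, from 5′ to 3′ on the plus strand, for 4 members, with the core in capitals (for PFKFB3 the palindrome CACGTG). They had the largest changes among searched members that hold the core, which EGLN3 did not hold. NDRG1, not searched, changed more (log2 fold change 0.68) than PFKFB3 (0.66). They lie at chr11:10304823-10305072 for ADM, chr21:44299803-44300052 for PFKL, chr10:6202682-6202931 for PFKFB3 and chr12:6914330-6914579 for ENO2.
ADM: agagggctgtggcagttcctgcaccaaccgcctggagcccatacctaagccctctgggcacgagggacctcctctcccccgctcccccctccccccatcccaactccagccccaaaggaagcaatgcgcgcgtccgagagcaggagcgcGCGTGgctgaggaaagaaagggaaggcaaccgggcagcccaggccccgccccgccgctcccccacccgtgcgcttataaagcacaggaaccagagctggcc
PFKL: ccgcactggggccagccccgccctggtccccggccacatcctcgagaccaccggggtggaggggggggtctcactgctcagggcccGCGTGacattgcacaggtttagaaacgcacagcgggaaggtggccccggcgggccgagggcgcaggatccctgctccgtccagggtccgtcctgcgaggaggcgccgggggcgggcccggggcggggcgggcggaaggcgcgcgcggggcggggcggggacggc
PFKFB3: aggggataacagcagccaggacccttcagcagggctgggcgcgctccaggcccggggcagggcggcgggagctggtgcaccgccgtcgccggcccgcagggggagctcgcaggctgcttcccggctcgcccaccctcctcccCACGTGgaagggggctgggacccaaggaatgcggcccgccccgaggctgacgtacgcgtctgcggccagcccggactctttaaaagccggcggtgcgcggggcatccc
ENO2: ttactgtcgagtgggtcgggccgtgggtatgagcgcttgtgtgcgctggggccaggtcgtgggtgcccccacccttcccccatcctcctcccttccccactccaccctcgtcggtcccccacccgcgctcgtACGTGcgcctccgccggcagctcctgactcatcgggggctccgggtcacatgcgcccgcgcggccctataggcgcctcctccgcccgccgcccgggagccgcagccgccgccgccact
The first base of the core lies 101 bases before the start in ADM, 164 in PFKL and 118 in ENO2, and the palindrome of PFKFB3 begins 108 bases before its start. ADM, PFKL and PFKFB3 were higher with IRF4 shRNA and ENO2 was lower, so the letters were present in members that moved in either direction.

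Library totals ran from 31.3 to 38.2 M estimated counts (M, 1e6). Levels are given as CPM, the counts in 1e6 of a library after TMM scaling. IRF4 RNA ran from 507 to 526 CPM in the series 1 and from 689 to 716 CPM in the series 2 IRF4 shRNA libraries, against 1427 to 1571 CPM in controls. Counts deviated from their group means with the GC content of the transcript, differently by library. Spearman's rho across genes was 0.233 to 0.315 in IRF4 shRNA series 1 and -0.329 to -0.200 in IRF4 shRNA series 2, against -0.496 to -0.0448 in control replicates 1 to 4 and 0.419 to 0.588 in control replicates 5 and 6 of series 2. Of the 7 B cell markers, 5 were higher and 1 lower, with summed levels of 6495 to 6833 CPM in IRF4 shRNA libraries and 4566 to 5145 CPM in controls. The table held 2 of 6 listed T and NK cell markers, 5 of 6 of fibroblasts and endothelium and 4 of 5 epithelial ones, and sums cover only these. Summed T and NK cell markers reached at most 0.0307 CPM with IRF4 shRNA and were 0 in controls. Markers of fibroblasts and endothelium summed to 15.3 to 17.4 CPM and to 7.0 to 9.26 CPM in controls, with 4 of 4 tested genes higher. Myeloid markers summed to 1.47 to 1.91 CPM against 0.445 to 1.22 CPM in controls, and MPO was at 0 in both groups. Epithelial markers summed to 20.8 to 34.0 CPM against 60.9 to 78.4 CPM in controls, nearly all from CDH1, with KRT18 at 0 in both groups. The part of these markers in the results was not tested. In bulk RNA, fewer cells of a type and less RNA per cell cannot be told apart.

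The question of the comparison was which genes of these pathways differed with IRF4 shRNA. Changes went in both directions within each group of genes and were mostly small. A gene was called when its edgeR quasi-likelihood p, adjusted over all 16437 genes, was under 0.05, and log2 fold changes are IRF4 shRNA over control. Of the 35 members 26 were called, 15 higher and 11 lower, where 48.2% of all tested genes were called, 24.2% higher and 23.9% lower. With scaling by library size alone 63.9% of all calls were higher, against 50.3% with TMM scaling. Among the 17 glycolytic enzymes 8 rose and 7 fell, with a median log2 fold change of -0.04 against -0.01 over all genes. Of the 5 switch enzymes 2 rose and 2 fell (median 0.11), and of the 13 hypoxia response genes 5 rose and 2 fell (median 0.01). Of the 26 called members 20 changed by less than 1.5-fold, and 2, ADM and EGLN3, by at least 2-fold. In 19 members the groups did not overlap, 10 higher and 9 lower, where this held for 30.8% of tested genes, 16.2% higher and 14.7% lower. ADM, which passed the low-count filter only through the IRF4 shRNA libraries, is counted in each of these sets.

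**Figure D1:**
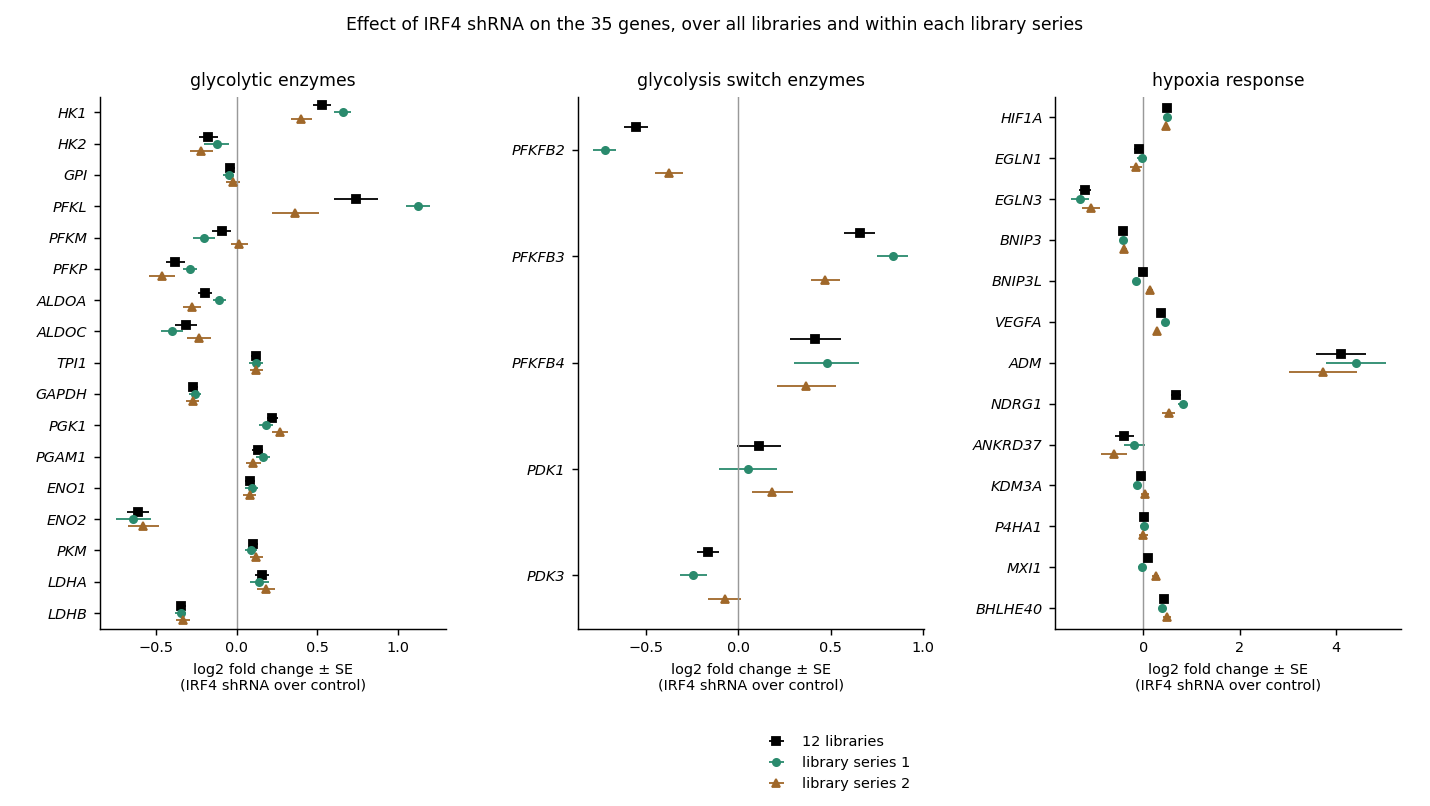
Log2 fold change of IRF4 shRNA over control with its standard error for each of the 35 genes, over 12 libraries (squares), in library series 1 (circles) and in library series 2 (triangles), with enzymes, switch enzymes and hypoxia response genes in 3 panels of different horizontal scale. Rises such as HK1 (0.53) and falls such as LDHB (-0.34) occur within the same pathway, and ADM (4.10) and EGLN3 (-1.20) lie farthest from 0 over 12 libraries.

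At the entry of glucose into the pathway, RNA was counted for 2 genes of hexokinase, the enzyme that phosphorylates glucose. HK1, the widely expressed hexokinase, had 47.3, 50.8 and 57.0 CPM as the lowest, median and highest IRF4 shRNA library, against 33.8, 35 and 39.9 CPM in controls. Every IRF4 shRNA library was above every control. The log2 fold change of HK1 was 0.53 (edgeR adjusted p = 2.53e-06, SE 0.06). HK2, an inducible hexokinase often abundant in tumours, went the other way, with 98.6, 109 and 116 CPM with IRF4 shRNA and 110, 120 and 135 CPM in controls. These groups overlapped, and the log2 fold change of HK2 was -0.17 (edgeR adjusted p = 0.0272, SE 0.06), which lost its call without control replicate 2 or 5 (0.0654 and 0.0631) and without IRF4 shRNA replicate 3, 5 or 6 (0.0955, 0.0852 and 0.0884). Summed per kb of transcript, the hexokinase level was 33.0 ± 1.94 CPM per kb with IRF4 shRNA and 31.4 ± 2.16 in controls (SD, n = 6 each), while the share of HK1 was 40.6% ± 2.45 against 29.6% ± 1.82. GPI, which isomerizes glucose phosphate to fructose phosphate, averaged 275 ± 6.95 CPM and 282 ± 5.95 CPM in controls and did not pass the test (edgeR adjusted p = 0.251).

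Phosphofructokinase commits sugar to glycolysis, and its genes moved apart. PFKL, the liver type subunit, had 94.0, 110 and 127 CPM in IRF4 shRNA libraries, against 48.9, 60.1 and 86.5 CPM in controls. The groups did not overlap, and the highest controls were replicates 5 and 6, at 82.2 and 86.5 CPM. The log2 fold change of PFKL was 0.74 (edgeR adjusted p = 0.000363, SE 0.14), and 0.96 (edgeR adjusted p = 3.16e-06) without those controls. PFKP, the platelet type subunit and the most abundant of the genes per kb, fell to 219, 232 and 242 CPM with IRF4 shRNA, against 275, 293 and 358 CPM in controls. Again no IRF4 shRNA library reached the level of a control, at a log2 fold change of -0.38 (edgeR adjusted p = 6.92e-05, SE 0.06). PFKM, the muscle type subunit, averaged 40.3 ± 3.11 CPM and 43.1 ± 2.88 CPM in controls (edgeR adjusted p = 0.202). The summed level of the step was 173 ± 10.9 CPM per kb with IRF4 shRNA and 172 ± 21 in controls, with PFKL making up 41.4% ± 3.48 against 24.8% ± 2.98 (SD, n = 6 each).

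At the steps that split the sugar and oxidize the resulting trioses, both aldolase genes and GAPDH fell and TPI1 and PGK1 rose. ALDOA, the main aldolase outside liver and brain, averaged 412 ± 13.2 CPM with IRF4 shRNA and 472 ± 31.7 CPM in controls (log2 fold change -0.20, edgeR adjusted p = 0.00136), with no overlap. ALDOC, the brain aldolase, was far lower in level, at 23.4 ± 2.26 against 29 ± 2.26 CPM (log2 fold change -0.31, edgeR adjusted p = 0.00162), again with no overlap. TPI1, which interconverts the triose phosphates, rose by 0.12 on the log2 scale (edgeR adjusted p = 0.00454), with overlapping groups. GAPDH, the dehydrogenase often used as a reference transcript, had 1042, 1065 and 1113 CPM with IRF4 shRNA, against 1257, 1283 and 1364 CPM in controls. No IRF4 shRNA library came up to the lowest control, with a log2 fold change of -0.27 (edgeR adjusted p = 1.58e-06, SE 0.03). PGK1, the first kinase of the pathway to return ATP, moved against GAPDH, its neighbour in the pathway. It had 293, 316 and 319 CPM in IRF4 shRNA libraries and 248, 268 and 280 CPM in controls, a change of 0.22 on the log2 scale (edgeR adjusted p = 0.000129, SE 0.04) with no overlap.

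Of the genes from phosphoglycerate mutase to pyruvate kinase, PGAM1, ENO1 and PKM were higher and ENO2 was lower. PGAM1, the phosphoglycerate mutase, averaged 284 ± 9.68 CPM with IRF4 shRNA and 259 ± 10.4 CPM in controls, without overlap (log2 fold change 0.13, edgeR adjusted p = 0.0056). ENO1, the main enolase, rose by 0.08 on the log2 scale (edgeR adjusted p = 0.0362), and this call was lost without control replicate 1, 3, 4 or 5 (adjusted p 0.0575 to 0.079). ENO2, the enolase of neurons, was present at a low level of 5.06, 5.57 and 6.25 CPM with IRF4 shRNA, against 7.98, 8.83 and 9.19 CPM in controls. The groups of ENO2 were apart, at a log2 fold change of -0.61 (edgeR adjusted p = 3.04e-06, SE 0.07). LRRC23, which overlaps ENO2 on the same strand in GENCODE 29, was also lower (3.53 against 4.59 CPM, log2 fold change -0.38, edgeR adjusted p = 0.00279). PKM, pyruvate kinase, averaged 1249 ± 34.2 CPM and 1163 ± 22.6 CPM in controls, with overlapping groups (log2 fold change 0.10, edgeR adjusted p = 0.00523, and 0.118 once the trend with GC was removed).

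The lactate dehydrogenase subunits, which interconvert pyruvate and lactate, changed in opposite directions. LDHA had 325, 340 and 361 CPM with IRF4 shRNA and 281, 308 and 338 CPM in controls, and the ranges overlapped (log2 fold change 0.16, SE 0.05, edgeR adjusted p = 0.0101). LDHB had 496, 512 and 524 CPM with IRF4 shRNA, against 630, 647 and 668 CPM in controls. All IRF4 shRNA libraries lay below all controls for LDHB, at a log2 fold change of -0.34 (edgeR adjusted p = 4.89e-08, SE 0.03). The summed level was 546 ± 11.8 CPM per kb with IRF4 shRNA against 624 ± 18.5 in controls, and the share of LDHA was 34.2% ± 1.11 against 26.8% ± 1.10. Over the 17 enzymes together the summed level was 6079 ± 132 CPM with IRF4 shRNA and 6285 ± 142 CPM in controls (SD, n = 6 each), with overlapping ranges.

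**Figure D2:**
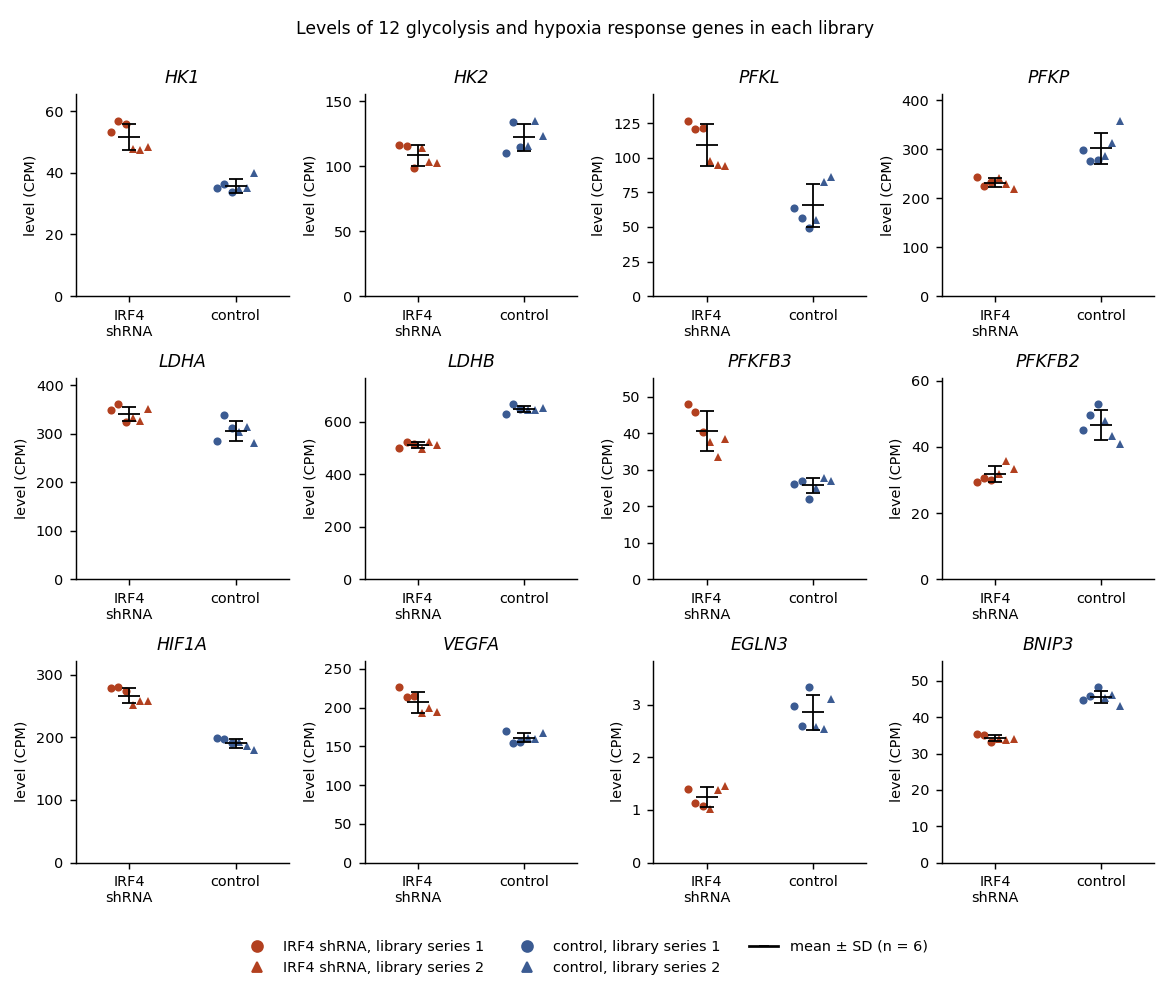
Level in CPM of 12 of the genes in each of the 6 IRF4 shRNA and 6 control libraries, with library series 1 as circles, library series 2 as triangles, and bars for the mean and SD. The groups of HK1, PFKL, PFKP, LDHB, PFKFB3, PFKFB2, HIF1A, VEGFA, EGLN3 and BNIP3 are apart, while those of HK2 and LDHA overlap.

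Several enzymes have processed pseudogenes, copies that can share reads with them. Pseudogenes of GAPDH (21 in the table) summed to 64.4 ± 2.69 CPM with IRF4 shRNA and 77.8 ± 4.58 CPM in controls, 6.01% and 6.03% of GAPDH itself. The share was larger for TPI1 (3 copies, 26.7% and 26.1%) and for BNIP3 (6 copies, 29.5% and 26.6%). Adding the copies to their genes changed no call. The log2 fold change was then -0.27 for GAPDH, -0.38 for BNIP3 and 0.08 for ENO1 (edgeR adjusted p = 0.0452).

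The switch enzymes set the direction of flux around phosphofructokinase and pyruvate dehydrogenase. PFKFB enzymes make and degrade the sugar bisphosphate that activates phosphofructokinase. PDK enzymes inhibit pyruvate dehydrogenase and so limit the use of pyruvate in the TCA cycle. PFKFB3, the isoform with the strongest kinase activity, had 33.6, 39.4 and 48.1 CPM with IRF4 shRNA, against 22.0, 26.5 and 27.8 CPM in controls. PFKFB2, known as the heart isoform, had 29.4, 31.2 and 35.7 CPM with IRF4 shRNA and 40.8, 46.6 and 53.0 CPM in controls. Neither gene's groups overlapped, and the directions were opposite. The log2 fold change was 0.66 for PFKFB3 (edgeR adjusted p = 1.12e-05, SE 0.08) and -0.55 for PFKFB2 (edgeR adjusted p = 6.77e-06, SE 0.07). PFKFB4, known as the testis isoform, rose by 0.42 (edgeR adjusted p = 0.0218, SE 0.14) at 5.80 ± 0.726 CPM against 4.35 ± 0.958 CPM in controls, with overlap. Per kb, PFKFB2 made up 21.4% ± 3.01 of the PFKFB transcripts with IRF4 shRNA and 37.7% ± 3.79 in controls. PDK1, a HIF target, averaged 15.6 ± 1.61 CPM and 14.4 ± 3.17 CPM in controls (edgeR adjusted p = 0.47, and 0.0377 without control replicate 2). PDK3 averaged 21 ± 0.99 CPM and 23.6 ± 2.10 CPM in controls, a change of -0.16 on the log2 scale (edgeR adjusted p = 0.0397) that lost its call in 15 of 23 alternatives, with 10 of the 12 libraries left out singly among them.

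In 13 pairs of related members the ratio within a library was compared as a description, with levels per kb of median transcript length. The groups did not overlap in 9 of the 13 pairs. No such share was computed over other pairs of genes, and some members stand in several pairs. HK1 to HK2 was 0.686 ± 0.0718 with IRF4 shRNA and 0.422 ± 0.0365 in controls, and PFKL to PFKP was 0.824 ± 0.109 against 0.376 ± 0.0556. LDHA to LDHB was 0.519 ± 0.0253 against 0.367 ± 0.0205, and PFKFB3 to PFKFB2 was 3.14 ± 0.614 against 1.36 ± 0.216. ENO1 to ENO2 was 199 ± 18.8 against 123 ± 6.26 (SD, n = 6 each throughout). A ratio within a library does not depend on the scaling between libraries, and it shows unequal change and not which gene changed. Such a ratio keeps the trend with GC of its library, which was not removed here. Transcript GC content was 67.8% for PFKL and 57.5% for PFKP, and 58.7% for PFKFB3 and 44.0% for PFKFB2. It was more alike for LDHA (43.9%) and LDHB (45.1%). The pairs PFKM to PFKP, ALDOA to ALDOC, PFKFB3 to PFKFB4 and PDK1 to PDK3 overlapped between the groups.

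**Figure D3:**
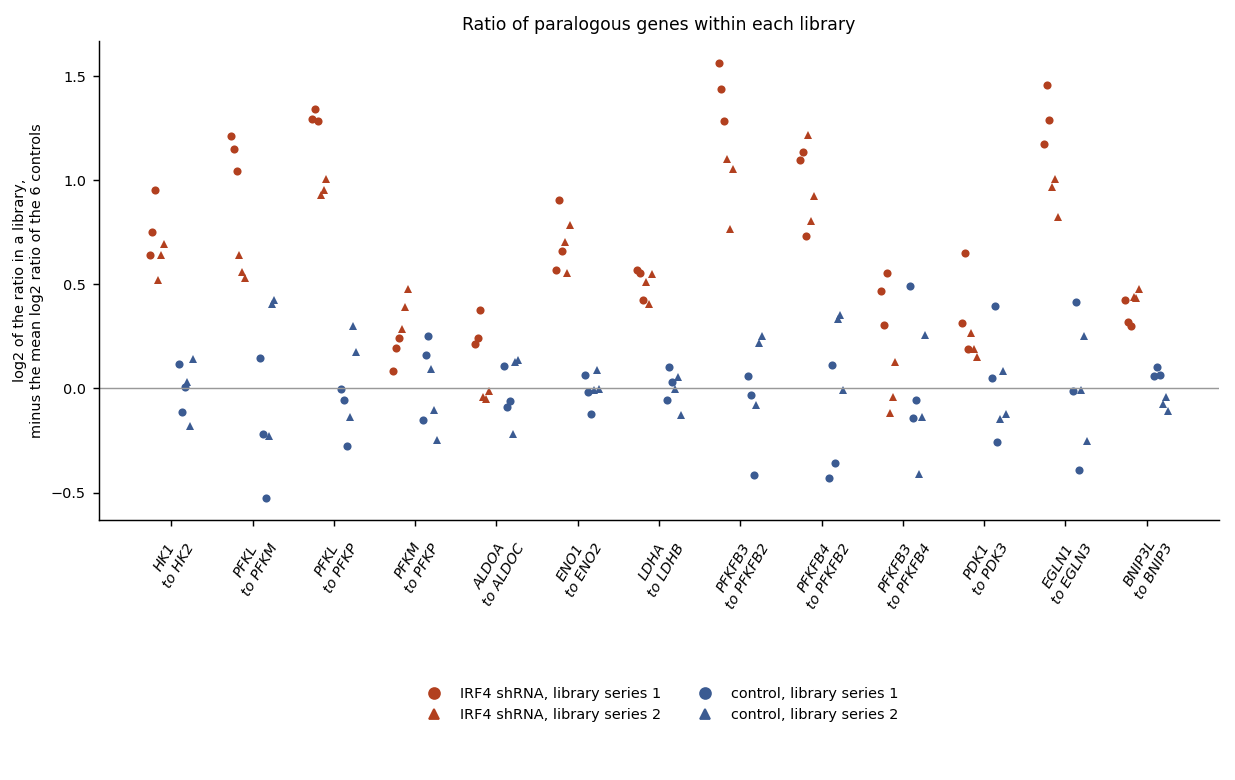
Log2 of the ratio of related genes in each library, minus the mean log2 ratio of the 6 controls, for 13 pairs, with IRF4 shRNA in red, control in blue, library series 1 as circles and library series 2 as triangles. The IRF4 shRNA libraries lie above all controls in 9 pairs, among them LDHA to LDHB and PFKFB3 to PFKFB2, and overlap with them in the other 4. No share over other pairs of genes was computed.

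Among the hypoxia response genes, the HIF subunit rose and 1 of 2 prolyl hydroxylases fell. HIF1A, which encodes the oxygen-labile alpha subunit, had 251, 266 and 280 CPM with IRF4 shRNA, against 180, 192 and 199 CPM in controls. The ranges were apart, and the log2 fold change was 0.48 (edgeR adjusted p = 5.27e-08, SE 0.04). EGLN1, the main oxygen-sensing hydroxylase, averaged 34.6 ± 5.45 CPM with IRF4 shRNA and 36.7 ± 4.60 CPM in controls (edgeR adjusted p = 0.54). EGLN3, a hydroxylase gene that HIF itself induces, was low, with 1.01, 1.26 and 1.45 CPM against 2.54, 2.79 and 3.33 CPM in controls. In counts this was 36 to 57 reads per IRF4 shRNA library and 81 to 107 per control. Every IRF4 shRNA library was below every control for EGLN3, at a log2 fold change of -1.20 (edgeR adjusted p = 1.35e-06, SE 0.12).

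The targets of HIF differed among themselves. VEGFA, the angiogenic ligand, had 192, 207 and 227 CPM with IRF4 shRNA, against 155, 160 and 169 CPM in controls, with no overlap and a log2 fold change of 0.36 (edgeR adjusted p = 6.98e-06, SE 0.04). ADM, the vasodilator peptide adrenomedullin, had 44, 30, 21, 19, 24 and 21 estimated counts in IRF4 shRNA replicates 1 to 6 and 3, 0, 1, 0, 0 and 4 in control replicates 1 to 6. ADM was near the detection limit in controls, where 3 counts correspond to 0.0786 to 0.0959 CPM. Every control was under the filter's minimum count of 10, so ADM was tested only through its IRF4 shRNA libraries. With controls this low only a rise could bring ADM into the test, and its call and lack of overlap are no separate support. The mean was 0.751 ± 0.294 CPM with IRF4 shRNA and 0.0390 ± 0.0504 CPM in controls, a 19.3-fold ratio of means. The fitted log2 fold change of 4.10 (edgeR adjusted p = 1.03e-05, SE 0.52) depends on the prior count at such low counts. NDRG1, a stress-induced cytosolic protein, had 5.22, 7.29 and 7.78 CPM with IRF4 shRNA and 3.79, 4.45 and 4.77 CPM in controls, without overlap (log2 fold change 0.68, SE 0.10, edgeR adjusted p = 6.27e-05).

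BHLHE40, a transcriptional repressor of the basic helix-loop-helix family, had 114, 127 and 145 CPM with IRF4 shRNA, against 88.8, 92.4 and 102 CPM in controls. Its groups were apart, at a log2 fold change of 0.44 (edgeR adjusted p = 1.05e-05, SE 0.06). BNIP3, a mitophagy receptor of the outer mitochondrial membrane, fell to 33.2, 34.1 and 35.4 CPM with IRF4 shRNA, against 43.1, 45.5 and 48.3 CPM in controls. No IRF4 shRNA library came near a control for BNIP3, whose log2 fold change was -0.41 (edgeR adjusted p = 2.36e-07, SE 0.04). Its relative BNIP3L averaged 65.9 ± 3.71 CPM against 66.6 ± 5.69 CPM in controls (edgeR adjusted p = 0.857). PNMA2, which overlaps BNIP3L on the opposite strand, rose by 0.57 (edgeR adjusted p = 3.86e-06), and the strand setting of the counting is not known from the sources used here.

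The other 4 targets did not pass the test. KDM3A, a histone demethylase, averaged 104 ± 5.94 CPM with IRF4 shRNA and 107 ± 14.9 CPM in controls (edgeR adjusted p = 0.599). P4HA1, a collagen prolyl hydroxylase subunit, averaged 24.6 ± 2.10 against 24.4 ± 2.47 CPM (edgeR adjusted p = 0.955). MXI1, a repressor that pairs with MAX, averaged 18.1 ± 0.962 against 16.8 ± 1.35 CPM (edgeR adjusted p = 0.153). ANKRD37, an ankyrin repeat protein, had 2.23, 2.74 and 4.31 CPM with IRF4 shRNA and 2.67, 3.55 and 5.73 CPM in controls (log2 fold change -0.40, edgeR adjusted p = 0.109). Without IRF4 shRNA replicate 1, the highest of its group, the adjusted p of ANKRD37 was 0.026 at a log2 fold change of -0.54. UFSP2, on the opposite strand to ANKRD37, was lower by a log2 fold change of -0.41 (edgeR adjusted p = 0.000198).

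Compared per kb, the levels spanned more than 3 powers of 10. GAPDH was highest, at 838 CPM per kb with IRF4 shRNA and 1009 in controls, followed by PKM (543 and 506) and ENO1 (462 and 436). LDHB came next (360 and 456), then ALDOA (266 and 305). The lowest were ADM (0.599 and 0.0311) and EGLN3 (0.458 and 1.05). VEGFA was the highest of the hypoxia response genes, at 186 and 144 CPM per kb, followed by HIF1A (68.0 and 48.7) and BNIP3L (58.2 and 58.8). VEGFA and PFKL lengths are medians over transcripts of 1116 bp and 1520.5 bp, so their levels per kb depend on the transcripts annotated.

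**Figure D4:**
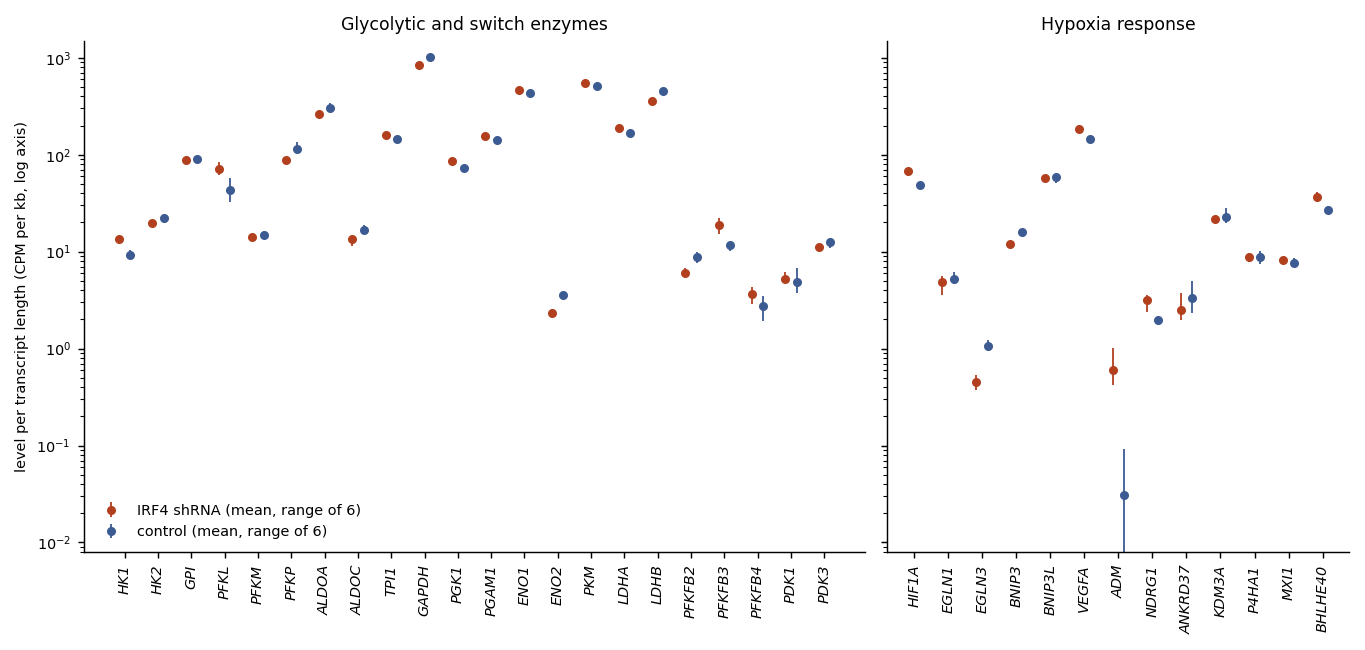
Mean level in CPM per kb of median transcript length on a log axis, with the range over 6 libraries as a line, for each member, IRF4 shRNA in red and control in blue. GAPDH is highest in both groups, the fall of EGLN3 (0.458 against 1.05) and the rise of ADM (0.599 against 0.0311) stand out, and the control line of ADM runs down to 0, off the axis.

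The comparison was repeated within each library series. In series 1, 24 members were called, 12 higher and 12 lower, where 50.3% of all tested genes were called, 25.7% higher and 24.6% lower. In series 2, 22 members were called, 12 higher and 10 lower, where 38.3% of all tested genes were called, 20.2% higher and 18.0% lower. Of the 35 members 9 were higher in both series, 9 were lower in both, and none was called in opposite directions. Of the others, 6 were called in series 1 alone and 4 in series 2 alone, and 7 in neither. The shares of all tested genes called in both series, in a single series or in neither were not counted. These counts of members are therefore a description without a comparison. By class, 5 glycolytic enzymes rose and 7 fell in each series. The switch enzymes had 2 rises and 2 falls in series 1 and 1 of each in series 2. The hypoxia response genes had 5 rises and 3 falls in series 1 and 6 rises and 2 falls in series 2. The 2 series share no library, so their values are separate measurements.

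The changes of HIF1A, BNIP3, GAPDH and LDHB lay close together in the 2 series, less so for HIF1A and GAPDH once the trend with GC was removed. HIF1A had a log2 fold change of 0.50 in series 1 and 0.47 in series 2, with 277 ± 3.53 against 196 ± 4.04 CPM in series 1 and 256 ± 4.21 against 186 ± 6.40 CPM in series 2 (SD, n = 3 each). BNIP3 had -0.43 and -0.39, GAPDH -0.26 and -0.27, and LDHB -0.35 and -0.33, in series 1 and 2. With the trend with GC removed, HIF1A had 0.62 and 0.40 and GAPDH -0.35 and -0.22. EGLN3 had -1.31 and -1.08. VEGFA had 0.45 in series 1 and 0.28 in series 2, but 0.20 and 0.41 with the trend with GC removed, so which series had the larger change turned with that setting. MXI1 was called in series 2 alone (log2 fold change -0.03 in series 1 and 0.26 in series 2, edgeR adjusted p = 0.72 and 0.02), and the difference between the series did not pass the test (edgeR adjusted p = 0.0678). The call of MXI1 was lost in 8 of 14 alternatives, among them those without IRF4 shRNA replicate 4, 5 or 6 or control replicate 5 or 6 (edgeR adjusted p 0.0575 to 0.0895). BNIP3L was called in series 1 alone (log2 fold change -0.15 and 0.13, edgeR adjusted p = 0.0486 and 0.11), and here too the difference did not pass (edgeR adjusted p = 0.0526). The call of BNIP3L was lost in 9 of 12 alternatives, among them GC removal (edgeR adjusted p = 0.126) and leaving out IRF4 shRNA replicate 2 or 3 or control replicate 2 or 3 (edgeR adjusted p 0.114 to 0.20).

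The difference between the series was tested by an interaction term, series 2 minus series 1. It was called for 3 of the 35 members, 1 with a higher and 2 with a lower value in series 2, where 5.07% of tested genes were called higher and 8.97% lower. HK1 rose by 0.66 in series 1 and 0.40 in series 2, an interaction of -0.27 (edgeR adjusted p = 0.0471, SE 0.08). This call was lost in 16 of 19 alternatives, with GC removed (edgeR adjusted p = 0.0852) and with any library but control replicate 4 left out (edgeR adjusted p 0.056 to 0.116). PFKFB2 had -0.72 and -0.38, an interaction of 0.33 (edgeR adjusted p = 0.0479, SE 0.10), lost in 15 of 19 alternatives, with GC removed (edgeR adjusted p = 0.0776) and with any library but control replicates 1 and 4 left out (edgeR adjusted p 0.0503 to 0.123). PFKFB3 had 0.83 and 0.47, and its interaction of -0.38 did not pass (edgeR adjusted p = 0.0544). PFKL averaged 123 ± 3.15 CPM against 56.4 ± 7.39 CPM in series 1 and 95.5 ± 2.19 against 74.7 ± 16.9 CPM in series 2 (SD, n = 3 each). Its log2 fold change was 1.12 and 0.36 (edgeR adjusted p = 2.20e-07 and 0.08), an interaction of -0.78 (edgeR adjusted p = 0.0164, SE 0.18). This call was lost without IRF4 shRNA replicate 1, 5 or 6 or control replicate 5 (edgeR adjusted p 0.051 to 0.0543). The transcript of PFKL had a GC content of 67.8%, the highest of the members. With the trend with GC removed, the change of PFKL was 0.50 in series 1 and 0.83 in series 2, and the interaction turned to 0.32 (edgeR adjusted p = 0.0438). Without control replicates 5 and 6, an alternative chosen after seeing the data, the change of PFKL was 0.79 in series 2, no member was called in the interaction, and that of PFKL was -0.34 (edgeR adjusted p = 0.172). The change of PFKL was above 0 in both series under these settings, while which series had the larger change depended on the GC correction.

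Genes of the same pathways beyond the members moved in both directions as well. Of 9 tested other glycolysis genes, 3 rose and 2 fell (median log2 fold change 0.08). PGM1, a phosphoglucomutase that links glycogen to glycolysis, was higher, at 24.2 ± 0.903 against 19.3 ± 1.62 CPM (log2 fold change 0.33, edgeR adjusted p = 0.000177). Its relative PGM2 was higher as well, at 11.6 ± 0.636 against 9.12 ± 0.874 CPM (0.34, edgeR adjusted p = 0.000736). ADPGK, an ADP-dependent glucokinase, was lower (-0.24, edgeR adjusted p = 0.00088), and ENO3, the muscle enolase, higher (0.21, edgeR adjusted p = 0.00562). Of 15 genes of the HIF machinery 3 rose and 1 fell (median 0.06), with 6 rises and 3 falls in series 1 alone and 1 of each in series 2 alone. SIAH2, a ubiquitin ligase for prolyl hydroxylases, had 101 ± 7.59 CPM against 65.1 ± 2.73 CPM (log2 fold change 0.63, edgeR adjusted p = 6.68e-08). CITED2, which competes with HIF for its coactivators, had 16.5 ± 2.97 against 10.7 ± 1.66 CPM (0.62, edgeR adjusted p = 0.000664). OS9 was lower (-0.18, edgeR adjusted p = 0.00247) and RBX1, a subunit of the VHL ligase, higher (0.13, edgeR adjusted p = 0.0157). ARNT, the partner of the HIF alpha subunit, averaged 56.4 ± 1.20 against 56.1 ± 5.59 CPM (edgeR adjusted p = 0.921) and VHL 92.6 ± 6.77 against 97.8 ± 4.63 CPM (0.213).

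Of 25 tested other hypoxia targets 8 rose and 7 fell (median -0.07). P4HA2, a collagen prolyl hydroxylase subunit like P4HA1, averaged 46.3 ± 3.29 CPM with IRF4 shRNA and 20.02 ± 1.60 CPM in controls (log2 fold change 1.21, edgeR adjusted p = 4.23e-10). GYS1, muscle glycogen synthase, averaged 330 ± 34.4 against 176 ± 17.1 CPM (0.90, edgeR adjusted p = 8.76e-08). WSB1, a ubiquitin ligase adaptor, was higher (0.35, edgeR adjusted p = 3.33e-06). CXCR4, the chemokine receptor, fell to 140 ± 11.4 CPM against 234 ± 17 CPM in controls (-0.74, edgeR adjusted p = 6.63e-08). These lists were chosen with earlier results of these data known, and their shares called, like those of the members, are read against the 48.2% called over all genes.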

How the data were processed

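Poly(A) RNA of 6 IRF4 shRNA and 6 control libraries was sequenced with a stranded TruSeq kit as 100 bp read pairs, per the labels' protocols. STAR, HTSeq and hg38 are named in the submitters' processing notes, with no versions or order. The deposited table holds estimated counts for 26318 genes, made by the authors from aligned reads and not normalized, per the submitters' processing notes and the values. Of its values 66.6% were whole at a tolerance of 1e-06, and the step that made fractions, the annotation release and the strand setting are not given in the sources used here. Counting that splits or drops reads between near-identical copies, or that ignores strand, would change the levels of genes with pseudogenes or antisense partners.

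Counts were rounded and tested with edgeR 4.0.16 in R 4.3.3 (quasi-likelihood, TMM, filterByExpr with a minimum count of 10, no covariate), with Benjamini-Hochberg adjustment over 16437 genes and calls under 0.05. Fits used 12 libraries, each library series alone, and the interaction of series and group. The SE is the log2 fold change over the square root of F. CPM uses TMM-scaled library sizes, and lengths and GC content are medians over GENCODE 29 transcripts (GC for 96.3% of tested genes). Totals of 31.3 to 38.2 M put 3 counts at 0.0786 to 0.0959 CPM, a floor that covers counting error only.

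On simulated counts over 16437 genes with known changes, the changed genes that were called had the right sign. The check required this result, and the simulation held no trend with GC. No label tells whether the libraries are separate cultures, and p-values therefore reflect only their spread, possibly a technical one. Replicates of the same series were farther apart than counting error alone would give (chi-square over its degrees of freedom, 2.73 to 31.9).

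All 35 members, up to 4 genes per other list by smallest p, and the promoters of up to 4 called members with the core that changed most were named by rule. Members and lists were chosen with earlier results of these data known. Alternatives were DESeq2 1.42.0 (size factors, Wald test), library size alone, no low-count filter, a lowess GC correction (span 0.3), series as a covariate, replicate blocks, added pseudogenes, an adjusted p under 0.01 and libraries left out.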

Additional observations from a re-analysis of the deposited data

Results flagged for a closer look

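GAPDH was at 1364 CPM in control replicate 2, far from the 5 other controls (1257 to 1296 CPM) relative to the range of the group. ANKRD37 was at 4.31 CPM in IRF4 shRNA replicate 1, far from the 5 other IRF4 shRNA libraries (2.23 to 2.85 CPM). Both gaps exceeded Dixon's 95% critical value for 6 libraries, which chance does in about 1 of 20 groups, and 70 groups were examined.

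For 3 members the effect of IRF4 shRNA differed between the library series by the edgeR interaction term (series 2 minus series 1). This was 8.57% of the 35 members, where 5.07% of all tested genes were called higher and 8.97% lower. The 3 members were HK1 (-0.27, adjusted p = 0.0471), PFKL (-0.775, adjusted p = 0.0164) and PFKFB2 (0.33, adjusted p = 0.0479). None of the 3 calls held in every alternative. The call of HK1 was lost in 16, that of PFKFB2 in 15 and that of PFKL in 5 of 19 alternatives, and the interaction of PFKL turned to 0.318 with the trend with GC removed. PFKL did not pass the test in series 2 alone (edgeR adjusted p = 0.08). The meaning of the series number is not given, and its part in these differences was not tested.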

How the results depend on the processing

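Over 12 libraries 22 of the 26 calls at an adjusted p under 0.05 held in all 23 alternatives run at that threshold, and no called member reversed. At an adjusted p under 0.01, 21 members were called, without HK2, ENO1, LDHA, PFKFB4 and PDK3. In series 1, 18 of 24 calls held in every alternative, and in series 2, 15 of 22. HK2 lost its call in 9 alternatives, ENO1 in 7, PKM in 2 and PDK3 in 15. Members without a call changed sign at values near 0: GPI to 0.0337, BNIP3L to 0.059 and KDM3A to 0.0209 with library size alone, BNIP3L to 0.0011 with GC removed, P4HA1 to -0.0421 without control replicates 5 and 6, and, with single libraries left out, EGLN1 (-0.117 to 0.0039), BNIP3L (-0.0501 to 0.0279), KDM3A (-0.0906 to 0.0248) and P4HA1 (-0.0364 to 0.0552). In series 1, PKM turned to -0.0132 with GC removed, and the interaction of PFKL to 0.318. Switch enzymes over 12 libraries had 1 rise at an adjusted p under 0.01, and 1 fall at that threshold, with library size alone, without the low-count filter and with 1 to 2 falls when single libraries were left out. In series 1, enzyme rises were 8 with library size alone (4 to 8 with libraries left out), switch rises 1 by DESeq2 or with GC removed (1 to 2), and switch falls 1 with library size alone (1 to 2). In series 2, enzyme rises were 3 with DESeq2 size factors or no filter and 8 with GC removed or library size alone (2 to 6 with libraries left out), switch rises 1 to 2 with libraries left out, and switch falls 2 without control replicates 5 and 6. The interaction was called for 1389 genes with GC removed, 206 without control replicates 5 and 6 and 738 to 5343 with libraries left out, the most without control replicate 4. Among members it was called for 5 by DESeq2, 1 without the filter, 0 without control replicates 5 and 6 and 0 to 9 with libraries left out (9 without control replicate 4, 7 without control replicate 1, 0 without control replicate 5 or IRF4 shRNA replicate 5 or 6, and 1 without any other). Library size alone raised the share of higher calls to 63.2% against 51.0% in series 1 and 63.6% against 52.9% in series 2, and GC removal raised it to 60.9% against 36.1% in the interaction. Deviations from group means gave no sign that title numbers pair the samples (correlations -0.255 to 0.130, and 0 of 6 libraries correlated best with their own number). Within series these correlations were -0.074 to 0.0216. The trend with GC was not removed in this check, which therefore cannot exclude a pairing. With the replicate block, 12 libraries gave 6942 calls against 7918 and 1 switch fall (1 with GC removed as well, where BNIP3L was at 0.00204), and 6918 by library-name numbers with 1 switch fall. The block gave 8 enzyme rises in series 1, 2 in series 2 (3 by library-name numbers), and 1322 interaction calls. Causes of these changes were not tested. Depth limits ADM, at 0 to 4 counts per control library.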

Other observations

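Most genes of the pathways that branch from or follow glycolysis did not pass the test, where 24.2% of all tested genes were called higher and 23.9% lower. Of 9 pentose phosphate genes 3 fell and 0 rose at an edgeR adjusted p under 0.05, with a median log2 fold change of -0.10 against -0.01 over all genes, while in series 1 alone 3 fell and 2 rose. PGD, which makes NADPH and pentose phosphate, fell to 136 ± 6.34 CPM with IRF4 shRNA against 193 ± 4.97 CPM in controls (log2 fold change -0.50, edgeR adjusted p = 1.81e-08), with no overlap. PRPS2, a phosphoribosyl pyrophosphate synthetase, averaged 40.1 ± 4.03 against 48.8 ± 3.12 CPM (-0.28, edgeR adjusted p = 0.0021), and PGLS, the lactonase, 23.1 ± 2.45 against 29.9 ± 7.89 CPM (-0.37, edgeR adjusted p = 0.0408). PRPS1 did not pass the test (-0.07, edgeR adjusted p = 0.129).

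Of 16 genes of the TCA cycle 6 fell and 1 rose (median -0.10). In series 1 alone 9 fell and 2 rose, and in series 2 alone 3 fell and 0 rose. CS, citrate synthase, averaged 217 ± 4.72 CPM with IRF4 shRNA and 260 ± 11.8 CPM in controls (-0.26, edgeR adjusted p = 1.27e-05), and MDH2, the mitochondrial malate dehydrogenase, 145 ± 3.61 against 168 ± 16.6 CPM (-0.21, edgeR adjusted p = 0.00523). The subunits of succinyl-CoA synthetase SUCLA2 (-0.18, edgeR adjusted p = 0.00503) and SUCLG2 (-0.14, edgeR adjusted p = 0.0131) were lower as well. Among 12 genes of gluconeogenesis and pyruvate entry 3 fell and 1 rose (median -0.04), and in series 2 alone 2 fell and 2 rose. DLAT, a subunit of pyruvate dehydrogenase, averaged 35.7 ± 1.10 against 46.2 ± 1.95 CPM (-0.37, edgeR adjusted p = 1.43e-06), and PDP1, the phosphatase that counters the PDK enzymes, 9.27 ± 0.662 against 7.04 ± 0.519 CPM (0.40, edgeR adjusted p = 0.000222). PCK2 (-0.16, edgeR adjusted p = 0.0137) and G6PC3 (-0.18, edgeR adjusted p = 0.0351) were lower. Red cell markers, of which the table held 2 of 5 listed, summed to at most 0.102 CPM with IRF4 shRNA and 0.0613 CPM in controls.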
